A study of Homo sapiens with 5 samples.

Results

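REC8 is a subunit of cohesin, the ring-shaped protein complex that holds sister chromatids together. It was examined here beside the 8 cohesin genes SMC1A, SMC1B, SMC3, STAG1, STAG2, STAG3, PDS5A and PDS5B. REC8 was selected on its lower signal in cells labelled PRL-1, so that difference is given as a description, without a p-value. The other genes are subunits of the complex or bind it, and were chosen with earlier results of these data known. They are not the whole complex, since the subunit RAD21 was read with related genes. Every probe set annotated to a single symbol of the 9 genes was taken. These were 28 of the 54675 probe sets on the Affymetrix expression array used. The cells were HEK293, a line derived from human embryonic kidney, stably transfected either with the empty pcDNA4 vector (HEK293-vector, n = 3 arrays) or with the same vector carrying PRL-1 (HEK293-PRL-1, n = 2 arrays). The product of PTP4A1, PRL-1 acts as a protein tyrosine phosphatase. Both groups were grown in the same medium with serum, penicillin and streptomycin. Each group is a single stable line sampled as separate cultures, so a difference between lines that is unrelated to PRL-1 and an effect of PRL-1 cannot be told apart.

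In dividing cells the cohesin ring is built from SMC1A and SMC3, long coiled-coil ATPases, closed by the kleisin RAD21, and bound by either STAG1 or STAG2. In meiosis REC8 takes the place of RAD21, SMC1B that of SMC1A, and STAG3 that of STAG1 and STAG2. PDS5A and PDS5B bind the ring and regulate how long it stays on chromatin. REC8, SMC1B and STAG3 are known mainly from germ cells, whereas the other genes are used by nearly all proliferating cells.

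The promoters of the 3 meiotic genes are shown because these genes stand in for the mitotic subunits in the same process. Each line gives the 250 bases before an annotated transcription start, 5′ to 3′ on the strand of the gene, from RefSeq on GRCh38.p14. Capitals mark the letters TTCCCGC, an E2F-like motif, searched on both strands. REC8 lies on the plus strand (chr14:24171830-24172079), SMC1B on the minus strand (chr22:45413600-45413849) and the second annotated start of STAG3 on the plus strand (chr7:100177668-100177917).
REC8: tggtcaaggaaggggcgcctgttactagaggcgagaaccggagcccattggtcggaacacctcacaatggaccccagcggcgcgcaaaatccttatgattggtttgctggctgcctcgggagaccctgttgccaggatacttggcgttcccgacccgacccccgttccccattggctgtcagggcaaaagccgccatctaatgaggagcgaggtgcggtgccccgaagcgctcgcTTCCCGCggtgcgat
SMC1B: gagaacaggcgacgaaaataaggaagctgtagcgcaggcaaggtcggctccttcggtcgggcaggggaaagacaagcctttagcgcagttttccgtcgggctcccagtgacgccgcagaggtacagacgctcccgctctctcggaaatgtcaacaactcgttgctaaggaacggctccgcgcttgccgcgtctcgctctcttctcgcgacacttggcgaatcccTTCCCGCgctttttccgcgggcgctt
STAG3: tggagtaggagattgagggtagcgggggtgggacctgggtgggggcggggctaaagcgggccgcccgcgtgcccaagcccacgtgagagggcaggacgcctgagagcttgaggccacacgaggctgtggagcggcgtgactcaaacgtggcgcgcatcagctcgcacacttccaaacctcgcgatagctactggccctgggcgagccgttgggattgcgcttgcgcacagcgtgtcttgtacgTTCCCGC

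The TTCCCGC motif began 15 bases before the start of REC8, 26 bases before that of SMC1B and 7 bases before that of STAG3. All 3 copies lay on the strand of the gene. RefSeq promoters were held for all 9 genes, in 13 windows, of which 6 windows of 6 genes held the motif. Besides the meiotic genes these were PDS5A, SMC1A and STAG1, and the first annotated start of STAG3, whose window overlaps the one shown, did not hold it. Over all 35116 promoter windows of this length, 5.52% held the motif. The members' windows were mostly rich in CpG, with 13 to 41 CpG sites against a median of 11, and REC8 had 21. REC8 also held 3 copies of the CCAAT box on the opposite strand (ATTGG), a motif found in 32% of windows, whereas SMC1B and the STAG3 window shown held none. The CCAAT box also occurred in windows of PDS5A, PDS5B, STAG1 and STAG2 and in the other STAG3 window. Among the member windows CACGTG, the E-box, occurred only in the STAG3 window shown, with 6.34% of all windows holding it. These matches describe letters in the windows, and binding or methylation was not measured.

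The median signal lay between 124.2 and 166 on the 5 arrays. Signals of vector replicate 3 correlated at 0.938 to 0.947 with the other arrays in log2, against 0.954 to 0.964 among those. Through its brightest probe set PTP4A1 gave 7463, 7533 and 6807 in vector cells and 7913 and 7239 in those labelled PRL-1. Over its 4 tested probe sets the log2 fold change lay between 0.06 and 0.15 (limma adjusted p from 0.737 to 0.892), none was called, and the groups overlapped in 3 of the 4. Whether these probe sets match the transcript made from the construct was not tested. Directions therefore refer to arrays labelled PRL-1. Of 8 lineage markers with a probe set, 6 (NEFL, VIM, KRT18, KRT8, PAX2 and EYA1) were above a signal of 100 on all arrays through their brightest probe set, while LHX1 and NEFM were near or under it. Among markers of other tissues COL1A1, PECAM1, CD3E and TTR were also above 100 on all arrays, so this level alone does not mark lineage. ALB, CDH5, CD14 and PTPRC stayed under 100. limma called 0 of the 7 lineage markers tested, against 0.247% of all genes. Of the 7, 3 had an unadjusted p of 0.05 or below, against 11.4% of all genes. The methods' t-test gave 0 and 0, against 9.96% of all genes at an unadjusted p of 0.05 or below. The summed signal of the lineage list was 67756 to 75209 on vector arrays and 68096 to 70194 on those labelled PRL-1. NEFL and VIM made up most of this sum. The 3 were KRT8 at 0.94, PAX2 at -0.75 and VIM at -0.54 in log2, each without overlap (adjusted p = 0.257, 0.341 and 0.314), and their part in the REC8 difference was not tested. Of 8 germ cell markers only BOLL passed the filter, at 94.4 to 247.2 with overlapping groups (log2 fold change 0.001, adjusted p = 1). SYCP1, DMC1, SYCP3 and TNP1 reached 107 to 127.1, and DDX4, DAZL and PRM1 stayed under 100. The summed germ cell signal was 523.2 to 675.1 on vector arrays and 517.1 to 703.6 on those labelled PRL-1. Most of this sum came from probe sets near or under 100.

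REC8 was lower on both arrays labelled PRL-1 than on any vector array. Its informative probe set, 218599_at, gave 898.9, 1007 and 1262 in the vector cultures (replicates 1 to 3), while PRL-1 replicate 1 gave 192 and replicate 2 gave 329.7. The group means were 1056 ± 187 (SD, n = 3) and 260.9 ± 97.3 (SD, n = 2), and from the means of the log2 signals, as for all folds here, REC8 was 4.16-fold lower on the arrays labelled PRL-1. The groups did not overlap, and the arrays labelled PRL-1 still lay above a signal of 100, under which probe sets were treated as near background. The size of the difference depended on which array labelled PRL-1 was used, since the log2 fold change was -2.45 with replicate 1 alone and -1.67 with replicate 2 alone. Leaving out vector replicate 3, where REC8 was highest, gave -1.92. In bulk RNA, fewer cells with the transcript and less transcript per cell cannot be told apart. The other REC8 probe set, 229536_at, gave between 6.8 and 49.4 on the 5 arrays and was not tested. It therefore adds no second reading of the gene, and the REC8 difference rests on 1 probe set.

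**Figure D1:**
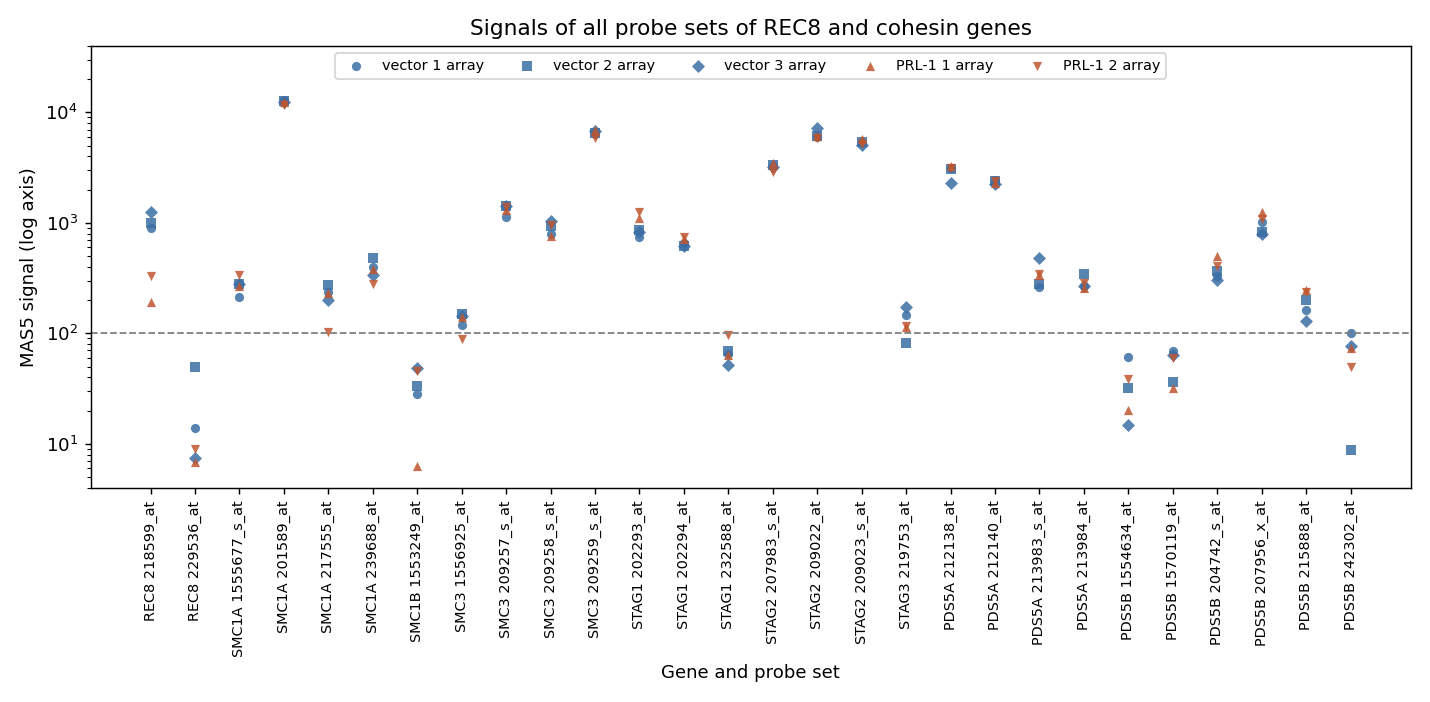
MAS5 signal (log axis) of all 28 probe sets of the 9 genes on each of the 3 vector arrays (blue) and the 2 arrays labelled PRL-1 (orange), with a dashed line at a signal of 100. REC8 218599_at separates, at 898.9 to 1262 on vector arrays against 192 and 329.7, while SMC1B and the second REC8 probe set stay under the line; heights of different probe sets are not comparable.

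The other meiotic genes were close to background in both groups. SMC1B, the meiotic partner of SMC3, gave 28.5, 33.4 and 48.2 on the vector arrays and 6.3 and 45.2 on the arrays labelled PRL-1 through its only probe set. None of these reached 100, so no fold is given. STAG3, the meiotic STAG subunit, gave 145.2, 81.5 and 172.1 on the vector arrays and 113.3 and 117.3 on the arrays labelled PRL-1. The groups overlapped, and STAG3 differed by -0.14 in log2 (95% interval -1.08 to 0.81, limma adjusted p = 0.941), or by 0.08 without vector replicate 3. At these dim signals the interval was wide, taking in a 2-fold fall and ending short of a 2-fold rise. STAG3 has partial copies in the genome whose transcripts could share its probes. Of these, STAG3L4 gave log2 fold changes of 0.07 and -0.45 in 2 probe sets and STAG3L3 gave -0.04, none called (adjusted p = 0.949, 0.374 and 0.967). The STAG3L4 probe set at -0.45 was lower on both arrays labelled PRL-1 than on any vector array.

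Across the members 22 probe sets were tested, and 6 of the 28 were under the filter. None of the 22 passed it through the arrays of 1 group alone. limma called 1 of the 22 at adjusted p of 0.05 or below, that of REC8, against 0.192% of all probe sets tested, and nothing is read from that count because REC8 was selected on this contrast. The count was 0 without vector replicate 2 and without PRL-1 replicate 1, with 4 and 3 member probe sets at an unadjusted p of 0.05 or below. Among the 21 tested probe sets of the other genes, limma called 0, and 3 had an unadjusted p at or below 0.05, as did 9.72% of all probe sets. The methods' t-test likewise called 0 and gave 2 at an unadjusted p of 0.05 or below. The groups did not overlap in 6 of these 21, against 28.9% of all probe sets. Of the 6, 5 were higher on the arrays labelled PRL-1, a direction that 12.8% of all probe sets showed without overlap, and these 5 belonged to STAG1 and PDS5B.

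The ATPases of the mitotic ring gave similar signals in both groups through their brightest probe sets. SMC1A gave 12845, 12712 and 12467 on the vector arrays and 12389 and 11598 on the arrays labelled PRL-1 through 201589_at. The groups did not overlap, at a log2 fold change of -0.08 (95% interval -0.32 to 0.16, adjusted p = 0.839) that turned to 0.05 with median centring. The 3 dimmer SMC1A probe sets pointed both ways, at 0.25, -0.30 and -0.61, none called (adjusted p from 0.626 to 0.757). In 217555_at, the lowest of these, PRL-1 replicate 2 at 103 stood below the other 4 arrays at 202.3 to 276.1.

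SMC3, which pairs with either SMC1 protein, gave 6413, 6458 and 6758 on the vector arrays and 6896 and 5869 on the arrays labelled PRL-1 through 209259_s_at. The arrays labelled PRL-1 thus stood on either side of the vector arrays. The fitted difference was -0.04 in log2 (95% interval -0.30 to 0.22, adjusted p = 0.935), turning to 0.09 with median centring. Its remaining probe sets gave -0.29 to 0.04, all with overlapping groups.

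The STAG subunits decide which form of the ring is made, STAG1 and STAG2 being the mitotic pair. STAG2, the more widely studied of the pair, gave 5997, 6151 and 7157 on the vector arrays and 6085 and 5820 on the arrays labelled PRL-1 through 209022_at. All 3 of its probe sets had overlapping groups, with log2 fold changes of -0.11, -0.05 and 0.06 and 95% intervals that together ran from -0.38 to 0.31. STAG1 gave 748.9, 854.5 and 826.6 on the vector arrays and 1097 and 1243 on the arrays labelled PRL-1 through 202293_at. This was a log2 fold change of 0.53 ± 0.13 (SE), or 1.44-fold, that was not called (95% interval 0.23 to 0.83, adjusted p = 0.27). Its second tested probe set, 202294_at, gave 661.5, 622 and 622.5 against 714.2 and 740.7, a log2 fold change of 0.20 (adjusted p = 0.679). Both STAG1 probe sets were higher on both arrays labelled PRL-1 than on any vector array. The third STAG1 probe set stayed under 100 on all arrays. Whether STAG1 and STAG2 differed in their response was not tested.

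**Figure D2:**
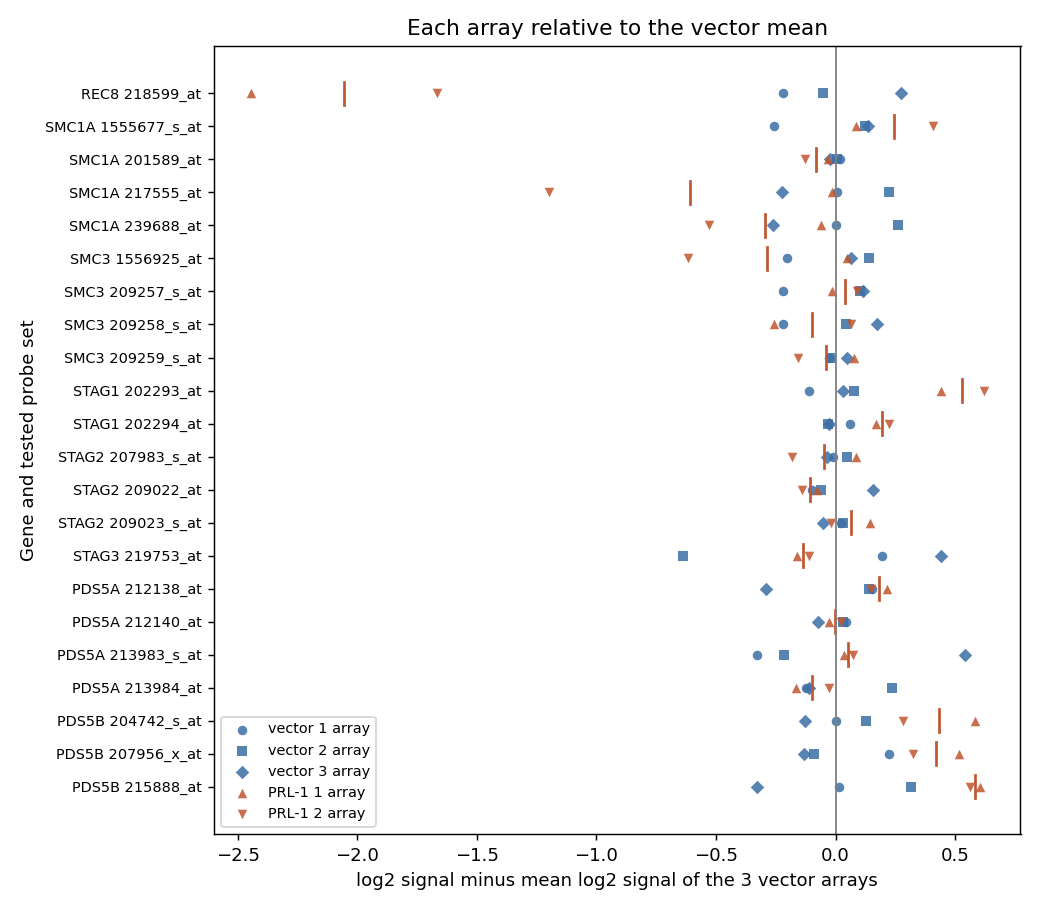
log2 signal of each array minus the mean of the 3 vector arrays, for the 22 tested probe sets, with vector arrays in blue, arrays labelled PRL-1 in orange and an orange bar at the PRL-1 mean. REC8 stands at -2.45 and -1.67 on the arrays labelled PRL-1, STAG1 and PDS5B lie to the right of all vector arrays, and SMC3, STAG2 and PDS5A scatter around 0.

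The paralogs PDS5A and PDS5B, which regulate release of cohesin together with WAPL from chromatin, were measured by 4 and 6 probe sets. PDS5B gave 1023, 822.7 and 800 on the vector arrays and 1251 and 1096 on the arrays labelled PRL-1 through 207956_x_at. Its log2 fold change was 0.42 ± 0.15 (SE), or 1.34-fold, without a call (95% interval 0.07 to 0.76, adjusted p = 0.428). The other tested PDS5B probe sets, 204742_s_at and 215888_at, gave 0.43 and 0.58 (adjusted p = 0.484 and 0.53). All 3 were higher on both arrays labelled PRL-1 than on any vector array, and all 3 report on the same gene, so they are not separate observations. A probe set of the _x_at kind can share probes with other transcripts. The 3 PDS5B probe sets that were not tested gave 8.8 to 100.8. PDS5A gave 3132, 3101 and 2301 on the vector arrays and 3271 and 3125 on the arrays labelled PRL-1 through 212138_at. Its 4 probe sets gave log2 fold changes of -0.10 to 0.18, all with overlapping groups, and in 212138_at the low vector value was that of replicate 3. In 212140_at the log2 fold change of PDS5A was -0.003 (95% interval -0.25 to 0.24, adjusted p = 0.995). The difference between the paralogs was not tested.

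Genes that work on the ring, of related SMC complexes and of meiosis were then taken from 4 lists. Each gene was read through its brightest tested probe set. limma called 0 of the 71 tested genes, against 0.247% of all 14546 genes tested, and 3 had an unadjusted p at or below 0.05, against 11.4% of all genes. With the methods' t-test these numbers were 0 and 5, against 9.96% of all genes at an unadjusted p of 0.05 or below. Among other core subunits and the factors that load, acetylate and release cohesin, 17 of 18 genes were tested, with a median log2 fold change of -0.002 and 8 genes above 0, against a median of -0.03 over all genes. The groups did not overlap in 6 of the 17, against 30.9% of all genes. RAD21, the mitotic kleisin for which REC8 substitutes, gave 7870, 7753 and 8938 on the vector arrays and 7377 and 6926 on the arrays labelled PRL-1, which did not overlap. The RAD21 difference of -0.19 in log2 was not called (95% interval -0.45 to 0.07, adjusted p = 0.627), and its other probe set gave 0.04 with overlapping groups. The remaining genes named here were all higher on both arrays labelled PRL-1 than on any vector array, without a call. DSCC1, of the alternative clamp loader that aids cohesion, gave 0.32 (adjusted p = 0.502), CHTF8, of the same loader, 0.25 (0.531) and NAA50, an acetyltransferase needed for cohesion, 0.47 (0.564). The vector values of NAA50 were 6306, 6809 and 3649, replicate 3 being the low one. Its other probe sets gave 0.72 and 0.82, also without overlap and not called (limma adjusted p = 0.282 and 0.351). Vector replicate 3 was the lowest array in these too.

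Genes that protect or cleave cohesin during division gave a median of 0.01 over 17 tested genes, and the groups overlapped in all 17. ESPL1, the protease separase that cuts RAD21 and REC8, gave -0.14 (adjusted p = 0.762). INCENP gave 0.25, PPP2R1B 0.23 and PLK1 0.16 (adjusted p from 0.695 to 0.755). Condensin and SMC5/6, the related SMC complexes that compact and repair chromosomes, gave a median of 0.08 over 17 tested genes. The groups did not overlap in 8 of the 17, 4 in each direction, against 30.9% of all genes in either direction. SLF1 gave 0.41 (adjusted p = 0.447), NCAPD3 0.21 (0.573), SMC6 -0.32 (0.547) and SMCHD1 -0.17 (0.663).

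Genes of the meiotic programme in which REC8 acts were partly near background. Of 43 genes of the synaptonemal complex and meiotic recombination, 37 had a probe set of their own, and 17 of these were not tested, among them SYCP1, SYCP3, SPO11, HORMAD1 and PRDM9. Of the 20 tested, SYCE3 and SYCP2 passed the filter through the arrays of 1 group alone, so that their difference is partly set by the filter. The other 18 gave a median of -0.18 with 12 below 0, and limma called 0 with 0 at an unadjusted p of 0.05 or below. Over all genes, with those that passed through 1 group alone likewise left out, 7572 of 14034 lay below 0. The groups did not overlap in 7 of the 18, against 4209 of those 14034. Of the 7, 6 were lower on the arrays labelled PRL-1, a direction that 2246 of the 14034 showed without overlap. SYCE3, of the synaptonemal complex, gave 134.2, 119.6 and 176.8 on the vector arrays and 74.3 and 13.9 on the arrays labelled PRL-1, and was 1 of the 3 genes of the lists at an unadjusted p of 0.05 or below. SYCP2, of the same complex, gave 67.9 to 68.5 on the vector arrays and 112.8 and 116 on the arrays labelled PRL-1, with the highest log2 fold change of the list at 0.75. Opposite groups were thus the brighter one for SYCE3 and SYCP2. MND1, which works with the meiotic recombinase but is also made in proliferating cells, gave -0.28 (adjusted p = 0.528). MLH3, a mismatch repair protein of crossover formation, gave -0.36 (0.553), and SYCE1L gave -0.41 (0.58). DMC1, the meiotic recombinase, which like SYCP2 was singled out after its values were seen, gave 14.7, 23.5 and 23.3 on the vector arrays and 94.5 and 117.8 on the arrays labelled PRL-1 in 1 of its 2 probe sets. These lie at background apart from 1 array at 117.8, and the probe set was not tested.

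**Figure D3:**
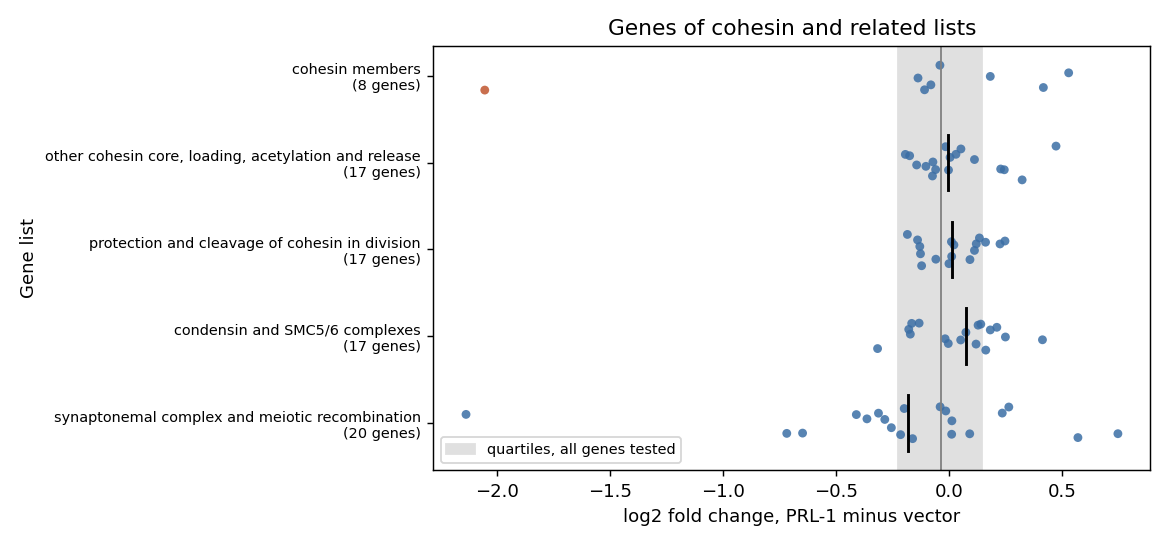
log2 fold change (PRL-1 minus vector) of each tested gene through its brightest probe set, with REC8 in orange, list medians as black bars (none for the cohesin members), the grey band for the quartiles of all 14546 genes tested (-0.23 to 0.15) and a grey line at their median. Apart from REC8 and SYCE3, genes of these lists lie between -0.72 and 0.75. SYCE3 is under a signal of 100 on both arrays labelled PRL-1, and SYCP2, the gene at 0.75, is under it on all vector arrays.

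None of the tested genes that flank REC8 on chromosome 14 had a value as low as that of REC8. Since REC8 was itself selected for its low value, nothing is read from this. Of the 15 protein-coding genes on each side, 17 had a tested probe set, and limma called 0 of them, against 0.247% of all genes, with 3 (11.4% of all genes) at an unadjusted p of 0.05 or below (PSME1, NOP9 and CARMIL3, all below 0, named after their values were seen). The methods' t-test called 0, also with 3 at an unadjusted p of 0.05 or below. IRF9, an interferon-responsive transcription factor directly before REC8, gave 279.9, 355.3 and 210.2 on the vector arrays and 353.2 and 287.9 on the arrays labelled PRL-1 (log2 fold change 0.21, adjusted p = 0.823). IPO4, a nuclear import receptor directly after it, gave 0.21 with a 95% interval of -0.16 to 0.59 (adjusted p = 0.714). Both adjoining genes thus had overlapping groups and means on the side opposite to REC8. Over the 17 tested neighbours the groups did not overlap in 6, against 30.9% of all genes. Of the 6, 5 were lower on the arrays labelled PRL-1, a direction that 17.2% of all genes showed without overlap. CARMIL3, RNF31 and TSSK4 passed the filter through vector arrays alone, so that their lower values are partly set by the filter. Among the other 14, limma called 0 and 2 had an unadjusted p of 0.05 or below. Of all genes left after the same exclusion, 1539 of 14034 had such a p. The groups did not overlap in 5 of the 14, against 4209 of those 14034. Of the 5, 4 were lower on the arrays labelled PRL-1, a direction that 2246 of the 14034 showed without overlap. The median was -0.26 over the 17 neighbours and -0.13 over the other 14, against -0.03 over all genes tested. The lowest value was -1.25 for RNF31, with signals from 44.9 to 305.2. The wide intervals of RNF31, PCK2 and CARMIL3 reached past the value of REC8.

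**Figure D4:**
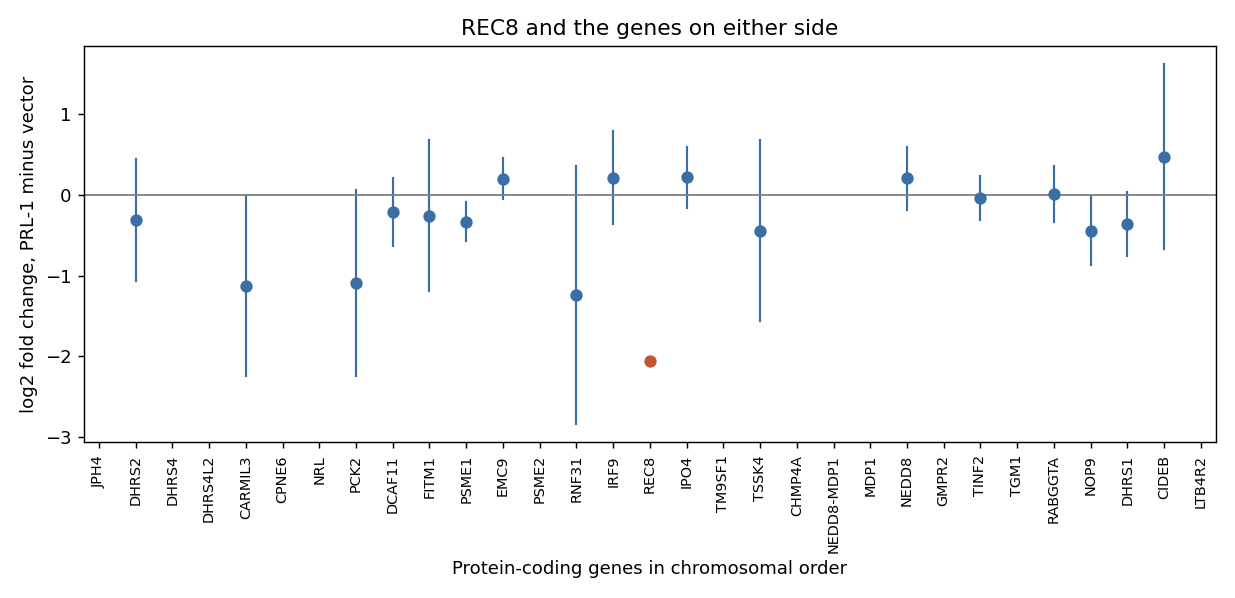
log2 fold change (PRL-1 minus vector) of REC8 (orange, no interval because it was selected on this value) and of its protein-coding neighbours in chromosomal order, with 95% intervals from limma. Genes with no point had no tested probe set, and the adjoining IRF9 and IPO4 lie at 0.21 each while REC8 lies at -2.06.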

How the data were processed

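RNA of HEK293-vector (n = 3) and HEK293-PRL-1 (n = 2) cultures was hybridized, each sample to its own HG-U133 Plus 2.0 array. The authors dropped a further PRL-1 array, because by qRT-PCR its sample did not differ from the controls in PRL-1 expression. The deposited values are linear MAS5 intensity values, which the authors computed with the affy library and which share a common trimmed mean on every array. MAS5 presence calls were not used here. The number of arrays limits the precision, so that p-values reflect only how cultures of 1 line per group varied.

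Control probe sets (62) were left out, and the 33818 probe sets with a signal of at least 100 on at least 2 arrays were tested. log2 signals were fitted with limma 3.58.1 in R 4.3.3 (eBayes with an intensity trend, group as the only term, two-sided). A probe set was called at 0.05 after Benjamini-Hochberg adjustment over all those tested. The fit was tested on simulated data. Symbols came from the platform annotation, updated through gene identifiers to GRCh38.p14. Probe sets with several symbols (1801) or none listed (11721) were not named.

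Members and lists were chosen with earlier results of these data known. The genes named were all members, up to 4 genes per related list with the smallest adjusted p, PTP4A1, the genes adjoining REC8 and the 5 genes most like it over the arrays. Markers and the other genes were named outside this rule, after their values were seen. Alternatives covered the filter (none, or a signal of 200), a log offset of 32, quantile normalization, median centring, eBayes without the trend, a replicate block, the methods' t-test and each array left out.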

Additional observations from a re-analysis of the deposited data

How the results depend on the processing

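The log2 fold change of REC8, whose selection on this contrast fixed its direction, ran from -2.45 to -1.67 over the 13 alternatives, and both ends came from leaving out an array labelled PRL-1. The same selection bears on the REC8 call. The number of called member probe sets was 1 under the filters, the offset, quantile normalization and median centring. It was 0 without the trend and with the methods' t-test (4 and 3 at an unadjusted p of 0.05 or below), and 0 to 1 with an array left out. The number called over all probe sets was 65. It was 9 without the trend, 0 with the methods' t-test (2905 at an unadjusted p of 0.05 or below), and 11 to 313 with an array left out, the highest without vector replicate 3. With the replicate number as a block, which leaves out vector replicate 3, 602 probe sets and 2 member probe sets were called. The second was STAG1 202293_at, at 0.55 in log2 (adjusted p = 0.0351, range over alternatives 0.0351 to 0.892). Same-numbered arrays shared little beyond their number (correlation of deviations 0.06 and -0.06). Among 271 values of the other members this was the 1 changed call, and 22 uncalled values in 12 probe sets changed sign. Median centring, which moved the median of all probe sets by 0.128, gave 0.048 for SMC1A 201589_at, 0.031 and 0.088 for SMC3 209258_s_at and 209259_s_at, 0.078 and 0.020 for STAG2 207983_s_at and 209022_at, and 0.125 and 0.031 for PDS5A 212140_at and 213984_at. The replicate block gave 0.084 for STAG3. With an array left out, the SMC3 values ran from -0.617 to 0.046 (1556925_at), -0.071 to 0.096 (209257_s_at), -0.258 to 0.063 (209258_s_at) and -0.157 to 0.076 (209259_s_at). STAG2 ran from -0.184 to 0.084 (207983_s_at) and -0.018 to 0.144 (209023_s_at), STAG3 from -0.455 to 0.084, and PDS5A from -0.041 to 0.023 (212140_at), -0.110 to 0.325 (213983_s_at) and -0.167 to 0.020 (213984_at). Genes of the 4 related lists gave 0 calls under all alternatives, with 1 to 8 of 71 at an unadjusted p of 0.05 or below. Dim signals limit SMC1B, STAG3 and the second REC8 probe set. A lone remaining PRL-1 array was taken to vary as vector arrays do.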

Other observations

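The genes whose log2 signals followed REC8 most closely over the 5 arrays were REXO5, LINC02910, KNG1, SUCLG2-DT and CASP10, with Pearson correlations of 0.996 to 0.998. Being chosen for following REC8, they were lower on both arrays labelled PRL-1 by construction, and no test is given. REXO5, an RNA exonuclease, gave 521.8, 549.3 and 600.8 in vector cultures against 346.6 and 399.5 in those labelled PRL-1. CASP10, an apoptotic caspase, gave 275.6, 270.4 and 296.2 against 167.4 and 191. LINC02910, KNG1 and SUCLG2-DT had means of at most 129.6 in the vector group, near background, and passed the filter through vector arrays alone. With 5 arrays in 2 groups such correlations mostly follow the group difference, and they carry no p-value.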
